A study of Gossypium hirsutum with 18 samples.

Results

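Leaves of cotton seedlings given the treatment coded SAS were compared with leaves given the treatment coded AS, 3 libraries in each group. Every gene with an FPKM (fragments scaled to gene length and to the fragments in the library) of at least 1 in 3 or more of these 6 libraries was included, which kept 43550 of the 70478 genes in the deposited table. The seedlings were upland cotton (Gossypium hirsutum), an allotetraploid that carries an A and a D copy of most genes. No cultivar, genotype or plant age is labelled. Both treatments lasted 12 h and were given in solution to plants that had first grown in soil. One solution held 125 mM NaHCO3 and the other NaOH set to the same pH. The labels do not say which of them is SAS and which is AS, so both codes are kept as given. Untreated CK leaves, also 3 libraries, have no stated solution or sampling time. Their levels are set beside the other groups, and they also entered the fit that estimated the spread between libraries. No label ties a library to a plant or pot of its own, so the p-values measure only how far these libraries spread, which may be technical.

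Sodium bicarbonate and sodium hydroxide both raise the pH around the roots and both bring in sodium, and bicarbonate also adds inorganic carbon and buffers the pH. In a leaf, many of the abundant transcripts serve photosynthesis: the small subunit of Rubisco, the enzyme that fixes CO2, and the chlorophyll-binding and core proteins of the photosystems. Leaf senescence is the ordered breakdown of chloroplasts in which those transcripts decline while proteases, NAC and WRKY transcription factors and ethylene synthesis genes become more abundant.

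Total counts were 57133798, 52753477 and 59105653 in the SAS leaf libraries and 66843791, 58072982 and 54634625 in the AS leaf libraries, and values below follow this order of libraries 1, 2 and 3. On the leading principal component of the 9 leaf libraries, which held 65.6% of the variance, SAS lay at 123.9, 172.8 and 85.8, AS at -0.00792, -31.9 and -16.4, and CK at -119, -116 and -99.3. The SAS libraries were spread the widest, with a biological coefficient of variation of 0.245 in SAS alone, 0.175 in AS alone and 0.140 in CK alone. Of the genes called below, SAS library 2 lay farthest from the AS mean for 71.7% and SAS library 3 nearest to it for 61.8%. The leaf label was checked against marker genes. Summed FPKM of 26 mesophyll genes, all of which also belong to the photosynthesis lists below, ran from 4758 to 9892 in SAS leaves, from 17319 to 18568 in AS leaves and from 82.1 to 601 in roots of any group. Guard cell genes summed to between 73.3 and 82.8 FPKM in SAS leaves and between 63.1 and 69.5 in AS leaves, with 1 of 7 tested members called higher and 1 lower. Phloem genes summed to between 550.1 and 739 FPKM in SAS leaves and between 641 and 678 in AS leaves, with 7 of 30 called higher and 4 lower. Epidermis genes summed to between 363 and 569 FPKM in SAS and between 270.4 and 428 in AS leaves, with 2 of 7 called higher. Xylem genes summed to between 422 and 601 FPKM in SAS and between 607 and 740.1 in AS leaves, with 2 of 16 higher and 2 lower. Branchless trichome genes summed to between 6.91 and 11.6 FPKM in SAS and between 10.7 and 13.2 in AS leaves, with 0 of 3 called. That list did not mark leaves: its sum reached 50.3 to 52.8 FPKM in CK roots, against 17.3 to 22.1 in CK leaves. Root genes summed to between 12.6 and 25.5 FPKM in SAS and between 11.5 and 24.97 in AS leaves. Of 40 members 24 were at 0 counts in each of these leaf groups, and 0 of 3 tested members were called. CK leaves gave 5.11 to 8.20 FPKM. Among root samples, SAS libraries gave 24.93 to 26.7 FPKM, AS libraries 34.8 to 51.5 and CK libraries 199 to 236. The SAS root range overlapped both treated leaf ranges, so the root list could not tell treated leaves from SAS roots. Organelle-type transcripts gave 0.012% to 0.013% of counts in SAS and 0.014% to 0.022% in AS leaves, with 6 of 32 tested members lower. The part of these marker genes in the results below was not tested. Fewer cells of a type and less RNA per cell cannot be told apart in these bulk samples.

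SAS and AS leaves differed in a large part of the transcriptome. At an adjusted p under 0.05 in edgeR's quasi-likelihood test, 17721 of 43550 genes were called (40.7%), of which 9117 were higher in SAS (20.9%) and 8604 lower (19.8%). The median log2 change over all tested genes, SAS over AS throughout, was -0.0017. Changes of 2-fold or more were called for 3331 genes that rose (7.65%) and 2787 that fell (6.4%), and changes of 8-fold or more for 199 that rose and 85 that fell. The 3 SAS libraries lay wholly above or below the 3 AS libraries in CPM for 22802 genes (52.4%). CPM is counts scaled to the library total as adjusted by TMM, edgeR's scaling between libraries. Both called and separated in this way were 17176 genes (39.4%). Genes named below, apart from H(+)-ATPase 6, were picked from these. The lack of overlap between their SAS and AS libraries was therefore fixed by the choice. Without SAS library 2 the number of called genes was 13802, with 6727 higher and 7075 lower. Above 250 FPKM, on the mean of the 6 libraries, 96 of 261 genes were lower and 57 higher. Between 10 and 50 FPKM 4155 of 15493 were higher and 3366 lower. The A and D subgenomes gave like shares of called genes, 41.6% of 20288 and 41.3% of 21143, and single chromosomes ran from 38.2% on A04 to 44.4% on D02. The sources used here do not say how reads common to an A and a D copy were assigned, so values of such pairs are uncertain.

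**Figure D1:**
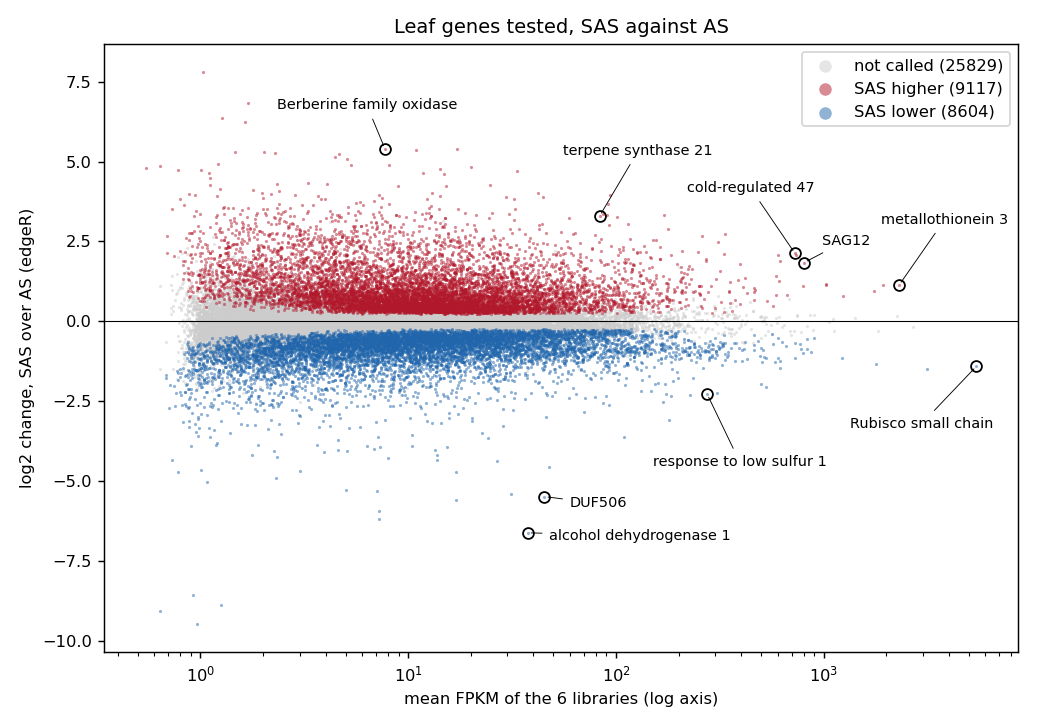
Log2 change of SAS over AS leaves (vertical axis, edgeR) against mean FPKM of the 6 libraries (log axis) for the 43550 genes tested, one point per gene; red genes were called higher in SAS, blue lower, grey not called. Called genes spread on both sides of 0, with Rubisco small chain transcripts at the right edge below 0 and alcohol dehydrogenase 1 among the lowest points.

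Photosynthesis transcripts were mostly lower in SAS leaves, from light capture to carbon fixation. Of 63 tested genes for Rubisco small subunits, Rubisco activase and Calvin cycle enzymes, 42 fell and 0 rose, with a median log2 change of -0.90 beside the -0.0017 of all tested genes. Of 102 photosystem core and oxygen-evolving subunits, 74 fell and 1 rose (median -0.85), and of 55 antenna proteins, which hold the light-collecting chlorophyll, 30 fell and 1 rose (median -0.91). Among 39 chlorophyll synthesis genes 29 fell and 4 rose (median -0.93). The photosystem count of 74 became 49 without AS library 2, and the antenna count of 30 ran between 20 without AS library 2 and 47 without SAS library 3. Of the chlorophyll synthesis genes, 1 rose in place of 4 without SAS library 2, AS library 1 or AS library 3, and 2 without AS library 2. The mesophyll marker genes are members of these lists and so give no separate measure of mesophyll cells.

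The transcript with the highest mean FPKM over the 6 libraries, a Rubisco small chain gene (Gh_A07G2172), had 2658, 2054 and 4082 FPKM in SAS leaves, against 7899, 8177 and 7723 FPKM in AS leaves and 7844, 9033 and 6812 FPKM in CK leaves. All SAS libraries were below all AS libraries (log2 -1.41 ± 0.24, adjusted p = 0.00198). Together the 8 Rubisco small chain genes, of which 6 fell and 2 were not called, summed to 5425, 4422 and 9225 FPKM in SAS leaves and 16488, 17406 and 16529 FPKM in AS leaves. Over the whole Rubisco and Calvin cycle list the sum was 8456, 6892 and 13414 FPKM in SAS leaves, against 22000.3, 23484 and 22607 in AS leaves and 23749, 26549 and 21822 in CK leaves. The AS and CK sums overlapped and the SAS sums lay below both. The antenna gene Gh_A01G1972, a light-harvesting protein of photosystem II, had 163, 145 and 251 FPKM in SAS leaves and 337, 447 and 315 in AS leaves, without overlap (log2 -0.94 ± 0.22, adjusted p = 0.00832). Photosystem I subunit l (Gh_A07G2201) had 275, 221 and 378 FPKM in SAS leaves, against 516, 619 and 482 in AS leaves (log2 -0.86 ± 0.19, adjusted p = 0.007). Crd1 (Gh_D01G1828), an iron enzyme that closes the last ring of chlorophyll, had 63.2, 46.8 and 90.7 FPKM in SAS leaves and 169, 201 and 181 in AS leaves, again without overlap (log2 -1.43 ± 0.21, adjusted p = 0.00106). In all 3 of these genes, and in the Rubisco gene, SAS library 2 was the lowest of the SAS libraries and SAS library 3 the highest. Among the 4 that rose was glutamate-1-semialdehyde 2,1-aminomutase 2 (Gh_D03G1075), which acts early in the same pathway. It had 9.65, 9.66 and 7.11 FPKM in SAS and 4.95, 3.99 and 5.41 in AS leaves (log2 0.92 ± 0.18, adjusted p = 0.00373).

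**Figure D2:**
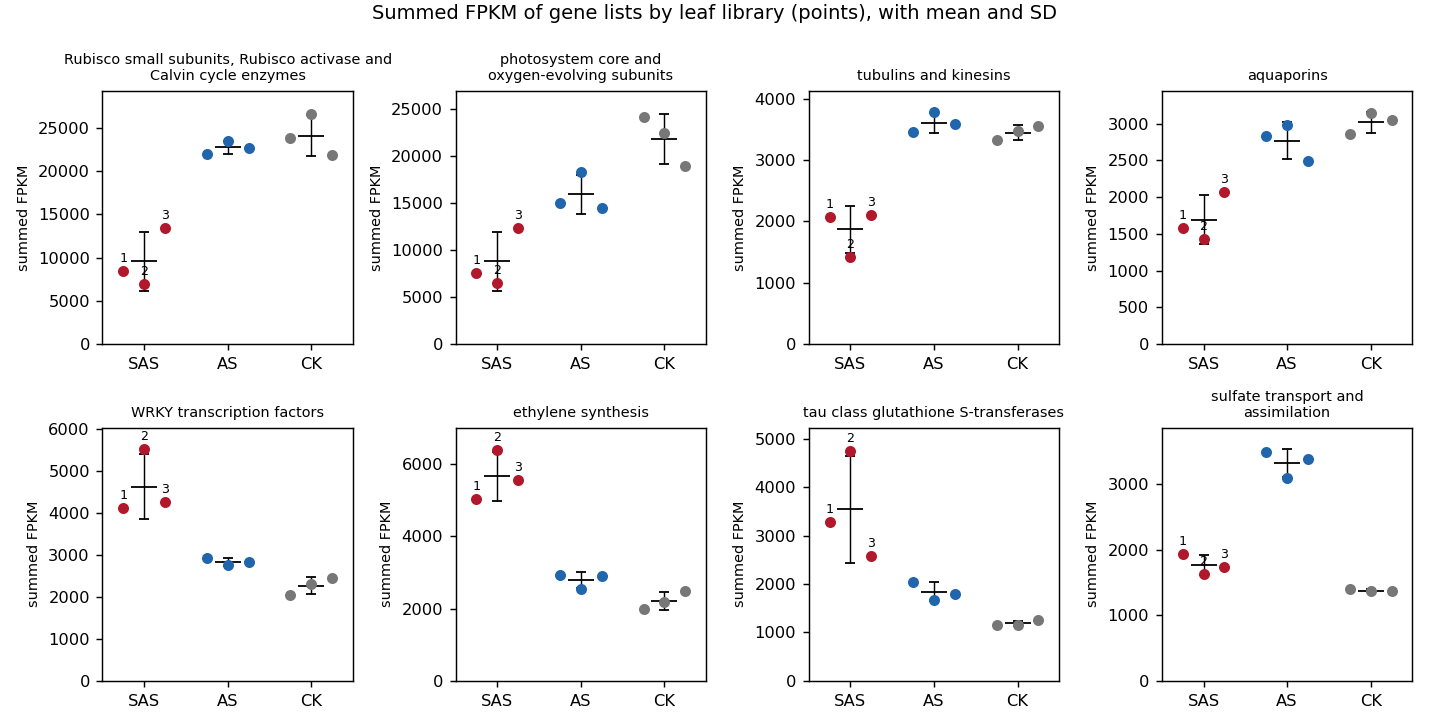
Summed FPKM of 8 gene lists in each leaf library (points; bars give mean and SD over 3 libraries; SAS points carry their library number), with SAS left of AS and CK. The SAS points lie below the AS points for Rubisco and Calvin cycle, photosystem, tubulin and kinesin, aquaporin and sulfate genes, and above them for WRKY factors, ethylene synthesis and tau class glutathione S-transferases.

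Most called starch genes were lower in SAS leaves. Of 90 starch genes 37 fell and 3 rose in SAS leaves (median -0.41). Without AS library 3, 24 fell, and without SAS library 3, 7 rose. Chloroplast beta-amylase (Gh_A11G0260), which releases maltose from starch, had 10.9, 10.5 and 11.1 FPKM in SAS leaves, 39.2, 58.8 and 56.3 in AS leaves and 107, 114 and 107 in CK leaves. The 3 groups were all apart (SAS over AS log2 -2.21 ± 0.15, adjusted p = 0.00015). The large subunit 1 of ADP-glucose pyrophosphorylase (Gh_A09G2263), which makes the sugar donor for starch, had 17.3, 11.6 and 22.6 FPKM in SAS leaves and 57.8, 53.7 and 55.9 in AS leaves (log2 -1.67 ± 0.18, adjusted p = 0.0004). Its level in CK leaves was 56.4, 54.6 and 52.6 FPKM, which overlapped AS. By contrast the starch-degrading alpha-amylase-like 2 (Gh_A06G0010) had 85.4, 93.7 and 75.01 FPKM in SAS leaves and 52.5, 44.3 and 56.5 in AS leaves (log2 0.77 ± 0.13, adjusted p = 0.00204).

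Sulfur genes were summed highest in AS leaves. Of 58 genes for sulfate transport and assimilation, 21 fell in SAS relative to AS leaves and 10 rose (median -0.22). The number that rose was 5 without SAS library 1 or AS library 1 and 6 without SAS library 2 or AS library 3. Genes described as response to low sulfur, small proteins whose transcripts accumulate under sulfur shortage in Arabidopsis, all 4 fell, by log2 values between -2.52 and -1.96. One of them, Gh_A08G0937 on chromosome A08 from 60204234 to 60204545, had 124, 49.9 and 104 FPKM in SAS leaves, 486, 436 and 447 in AS leaves and 72.3, 76.5 and 85.03 in CK leaves. AS leaves were above both other groups, and SAS leaves overlapped CK leaves (SAS over AS log2 -2.27 ± 0.26, adjusted p = 0.00042). The 4 genes of that description summed to 326, 158 and 305 FPKM in SAS leaves, 1313, 1194 and 1272 in AS leaves and 253, 232 and 228 in CK leaves. Response to low sulfur genes count in the sulfur list, so the list sum is no separate measure. Over the list the summed FPKM was 1934, 1631 and 1745 in SAS leaves, 3502, 3091 and 3390.0 in AS leaves and 1408, 1367 and 1366 in CK leaves. Among the members that rose, sulfite reductase (Gh_A07G1122), the chloroplast enzyme that makes sulfide, had 31.6, 38.6 and 34.02 FPKM in SAS and 18.8, 17.5 and 15.9 in AS leaves (log2 1.04 ± 0.12, adjusted p = 0.00048).

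WRKY and NAC transcription factors, among them regulators of senescence and defence, were mostly higher in SAS leaves. Of 183 WRKY transcription factors 113 rose and 7 fell (median 0.98), with 86 of the rises at 2-fold or more, and of 148 NAC factors 77 rose and 4 fell (median 0.64). Those 4 became 10 without SAS library 3 and 1 without SAS library 2, AS library 1 or AS library 3. Genes of senescence and chlorophyll breakdown were mixed, with 27 that rose and 13 that fell of 57 (median 0.28). Autophagy genes, which deliver cell contents to the vacuole, had 12 that rose and 2 that fell of 37 (median 0.26), and the 2 became 1 without SAS library 1 or any AS library.

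Senescence-associated gene 12 (Gh_D06G1428), a cysteine protease gene used as a marker of leaf senescence, had 1060.2, 1783 and 897 FPKM in SAS leaves, against 375, 299.9 and 408 in AS leaves and 13.3, 31.7 and 42.1 in CK leaves. The 3 groups did not overlap (SAS over AS log2 1.84 ± 0.40, adjusted p = 0.00562). Senescence-associated gene 21 (Gh_A08G0693), a small stress-induced protein, had 314, 446 and 269 FPKM in SAS and 105, 99.7 and 113 in AS leaves (log2 1.74 ± 0.20, adjusted p = 0.00047). In the other direction, senescence-associated gene 20 (Gh_D10G2417) had 243, 172 and 317 FPKM in SAS and 393, 415 and 364 in AS leaves (log2 -0.65 ± 0.18, adjusted p = 0.0157). WRKY DNA-binding protein 7 (Gh_D11G1963) had 161, 225 and 138 FPKM in SAS leaves and 66.3, 58.8 and 61.1 in AS leaves, with the lowest SAS library above the highest AS library (log2 1.54 ± 0.18, adjusted p = 0.0005). A WRKY DNA-binding protein 4 gene (Gh_D11G1141) was one of the 7 that fell, with 38.7, 37.5 and 47.7 FPKM in SAS and 59.7, 73.05 and 65.2 in AS leaves (log2 -0.64 ± 0.11, adjusted p = 0.00189). NAC domain containing protein 83 (Gh_D02G1769) had 190.3, 271 and 177 FPKM in SAS leaves, against 103, 74.4 and 96.04 in AS leaves (log2 1.27 ± 0.20, adjusted p = 0.00133). In all 6 of these regulators and senescence genes SAS library 2 lay farthest from the AS libraries. ATG18 H (Gh_A11G2365), a lipid-binding protein of autophagosome formation, had 11.4, 13.1 and 8.19 FPKM in SAS and 5.25, 4.43 and 5.12 in AS leaves (log2 1.19 ± 0.17, adjusted p = 0.00104). Autophagy-related protein 13 (Gh_A05G3353), a regulator of the kinase that starts autophagy, was 1 of the 2 that fell, with 0.645, 0 and 0.638 FPKM in SAS and 3.78, 4.24 and 3.81 in AS leaves (log2 -3.08 ± 0.63, adjusted p = 0.0043). Neither autophagy gene had overlapping SAS and AS libraries, and the ATG13 gene had 0 counts in SAS library 2. The ATG13 gene passed the filter only through AS, so its direction was fixed. For 130 proteasome subunits 15 rose and 0 fell, with a median of 0.13. The share that rose, 11.5%, was under the 20.9% of all tested genes. That count was 1 without SAS library 2 or AS library 2, 3 without SAS library 1, 5 without AS library 3 and 31 without SAS library 3. It was 1 with the 6 libraries fitted alone and 7 with a replicate block or scaling by library totals.

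**Figure D3:**
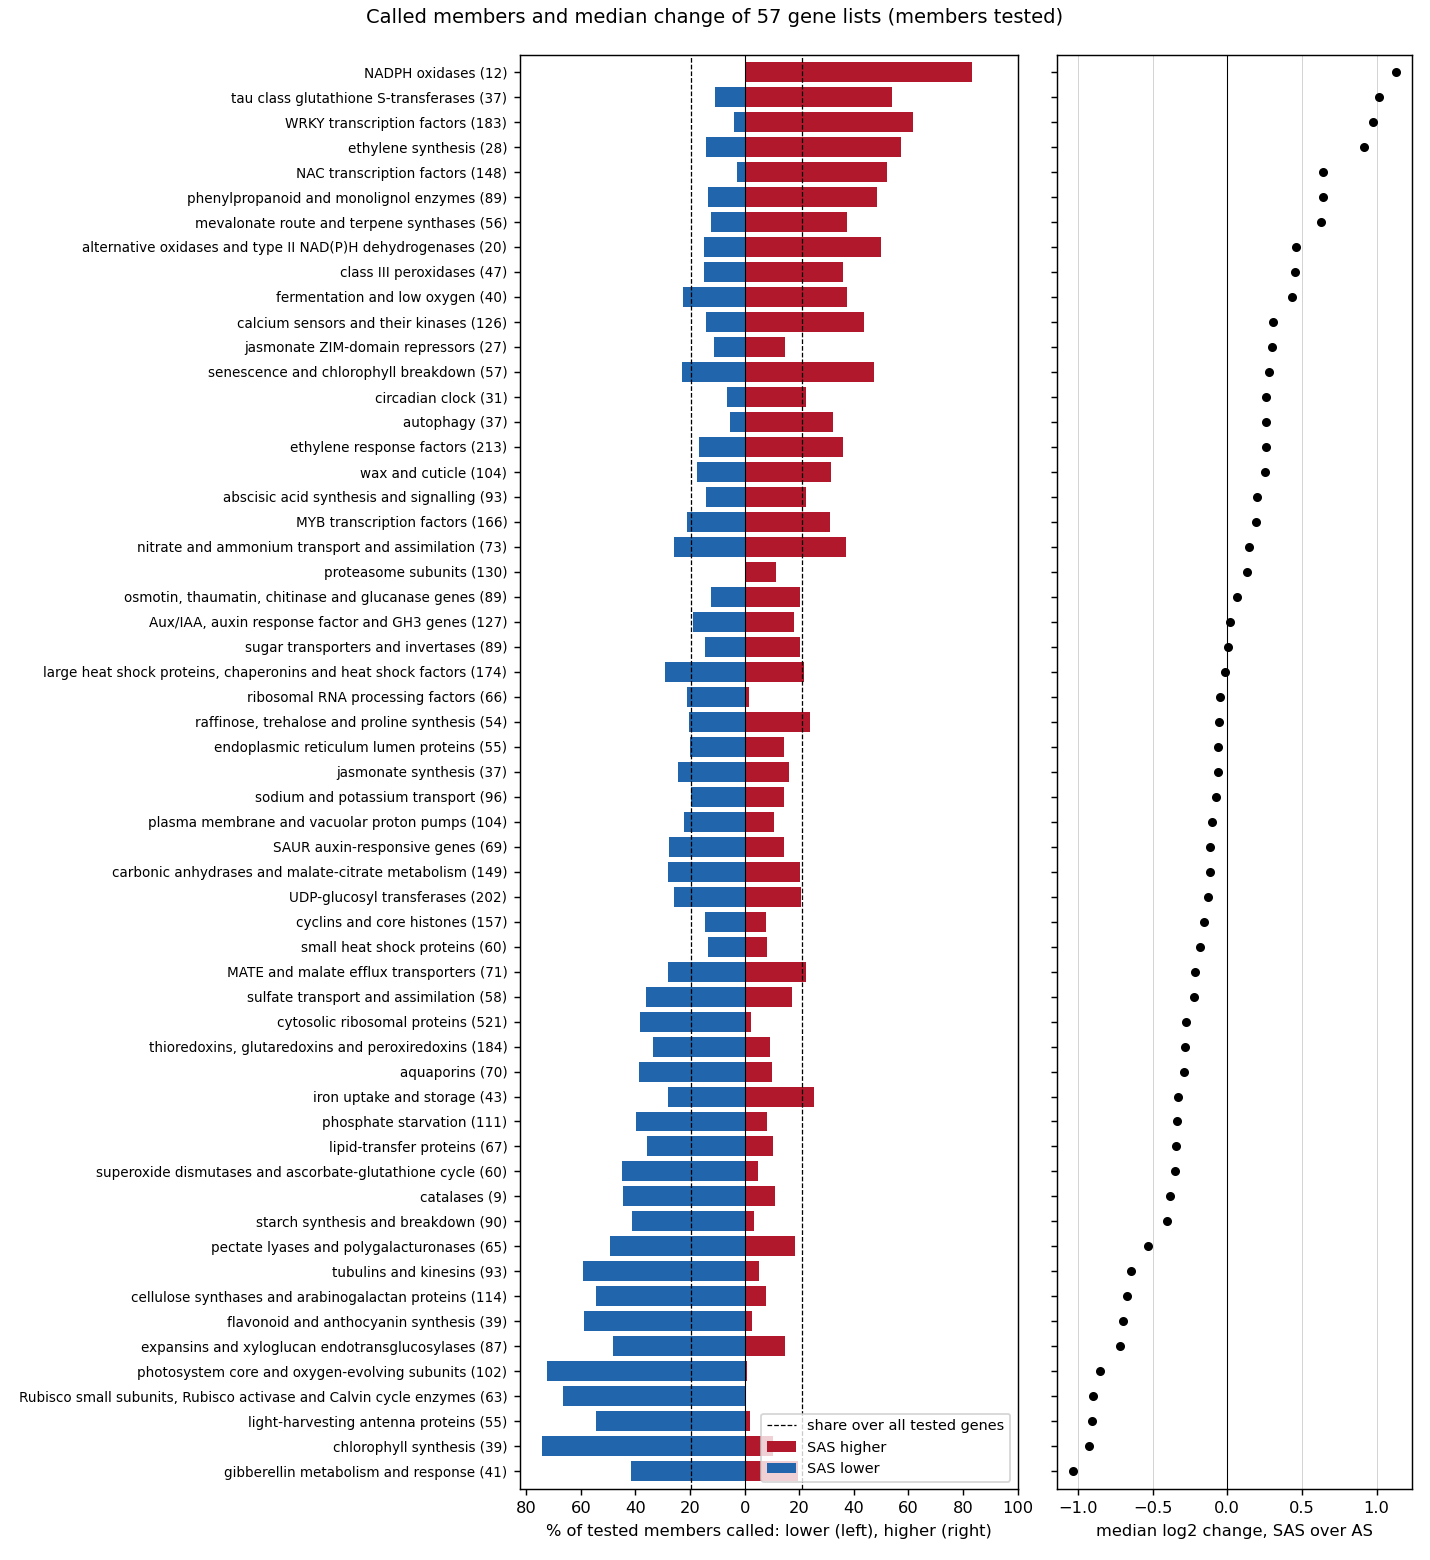
Share of tested members called higher (red, right) or lower (blue, left) in SAS leaves for 57 gene lists, and the median log2 change of each list (right panel); numbers in brackets are members tested and dashed lines mark the shares over all tested genes, 20.9% higher and 19.8% lower. NADPH oxidases, tau class glutathione S-transferases and WRKY factors stand at the top, gibberellin, chlorophyll and photosynthesis genes at the bottom.

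NADPH oxidase transcripts were mostly higher in SAS leaves, while most called genes of catalases and the ascorbate-glutathione cycle were lower. Of 12 NADPH oxidases, plasma membrane enzymes that release superoxide outside the cell, 10 rose and 0 fell (median 1.13). For the mitochondrial bypass, 20 alternative oxidase and type II dehydrogenase genes, 10 rose, 3 fell and 7 were not called (median 0.46). Tau class glutathione S-transferases couple reactive compounds to glutathione, and of 37 such genes 20 rose and 4 fell (median 1.01). Of 9 catalases 4 fell and 1 rose (median -0.39, or 0.08 over the 6 that reach 5 FPKM), and 2 fell without SAS library 2 or AS library 2. Of 60 superoxide dismutases and ascorbate-glutathione cycle genes 27 fell and 3 rose (median -0.35). Thioredoxins, glutaredoxins and peroxiredoxins had 62 that fell and 17 that rose of 184 (median -0.29), with 41 that fell without AS library 3.

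Respiratory burst oxidase protein F (Gh_D12G2750) had 46.2, 58.2 and 46.5 FPKM in SAS leaves, against 27.8, 17.6 and 24.7 in AS leaves and 14.5, 16.7 and 17.6 in CK leaves. SAS lay above both other groups (SAS over AS log2 1.15 ± 0.18, adjusted p = 0.00156). Alternative oxidase 2 (Gh_D04G1513), which passes electrons from ubiquinol to oxygen, had 126, 181 and 108 FPKM in SAS leaves, 33.1, 24.1 and 35.7 in AS leaves and 8.94, 8.93 and 8.93 in CK leaves. SAS lay above AS and AS above CK (SAS over AS log2 2.20 ± 0.22, adjusted p = 0.00031). Its A copy (Gh_A04G0970) showed 99.7, 171 and 107 FPKM in SAS and 27.8, 22.1 and 31.98 in AS leaves (log2 2.25 ± 0.23, adjusted p = 0.00035). Glutathione S-transferase TAU 25 (Gh_D13G1635) had 459.8, 645 and 234 FPKM in SAS leaves and 72.4, 84.8 and 59.5 in AS leaves, and at most 1.69 in CK leaves. Its SAS libraries were all above its AS libraries (log2 2.68 ± 0.39, adjusted p = 0.00107). Catalase 2 (Gh_D03G0021), which breaks down hydrogen peroxide in peroxisomes, had 112, 60.6 and 119.5 FPKM in SAS leaves, against 265, 250.4 and 314 in AS leaves and 282, 273 and 255 in CK leaves. Its AS and CK values overlapped and its SAS values lay below both (log2 -1.48 ± 0.22, adjusted p = 0.00107). Fe superoxide dismutase 2 (Gh_D07G0457), a chloroplast enzyme in Arabidopsis, had 25.3, 27.3 and 33.5 FPKM in SAS and 108, 62.2 and 108 in AS leaves (log2 -1.66 ± 0.22, adjusted p = 0.00078). In the other direction, glutathione-disulfide reductase (Gh_D10G1419), which keeps glutathione reduced, had 54.4, 57.8 and 49.5 FPKM in SAS and 34.97, 37.6 and 36.3 in AS leaves (log2 0.61 ± 0.10, adjusted p = 0.00179).

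Class III peroxidases, secreted enzymes that use hydrogen peroxide on cell wall phenolics, split in direction. Of 47 tested 17 rose and 7 fell (median 0.45), yet the summed FPKM was 2902, 3076 and 3036 in SAS leaves and 3832, 3716 and 4071 in AS leaves. The abundant Gh_A05G1452 had 352, 203 and 413 FPKM in SAS and 825, 1004 and 901 in AS leaves (log2 -1.47 ± 0.23, adjusted p = 0.00131). Gh_D08G2167 had 67.1, 86.3 and 74.3 FPKM in SAS and 11.1, 10.2 and 7.41 in AS leaves (log2 3.03 ± 0.39, adjusted p = 0.00068). The SAS and AS libraries of both peroxidases were apart, in opposite directions. Chaperones also split. Heat shock cognate protein 70-1 (Gh_A06G1477), a cytosolic chaperone, had 503, 671 and 455 FPKM in SAS and 268, 172 and 241 in AS leaves (log2 1.30 ± 0.21, adjusted p = 0.00169). The chloroplast chaperonin 60 beta (Gh_D10G1996), which helps Rubisco subunits fold, had 54.1, 36.7 and 50.3 FPKM in SAS and 159, 113 and 166 in AS leaves (log2 -1.60 ± 0.19, adjusted p = 0.00047). Of 174 large heat shock proteins, chaperonins and heat shock factors 38 rose and 51 fell (21.8% and 29.3%). Of 60 small heat shock proteins 5 rose and 8 fell (8.33% and 13.3%), or 5 fell without SAS library 1. For 55 proteins of the endoplasmic reticulum lumen 8 rose and 11 fell (14.5% and 20%). Over all tested genes the shares were 20.9% and 19.8%. The 8 lumen genes that rose became 5 without SAS library 2 or AS library 2. The 11 that fell became 7 without SAS library 1 and 6 without AS library 1 or AS library 3.

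Ethylene synthesis genes were mostly higher in SAS leaves. Of 28 ethylene synthesis genes 16 rose and 4 fell (median 0.92), and their summed FPKM was 5034, 6395 and 5566 in SAS leaves, against 2941, 2536 and 2917 in AS leaves. The number that fell was 1 or 2 without any single library other than SAS library 3. Ethylene response factors had 77 that rose and 36 that fell of 213 (median 0.26). The ethylene-forming enzyme gene Gh_A08G0460, for the oxidase of the last step, had 1940.4, 2455 and 2412 FPKM in SAS leaves, 1259.5, 1152 and 1201 in AS leaves and 1067, 1115 and 1325 in CK leaves. Its AS and CK values overlapped, and its SAS values were above both (log2 0.95 ± 0.16, adjusted p = 0.0019).

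Genes of gibberellin, a growth hormone, had the lowest median of the 57 lists, -1.03, with 17 that fell and 8 that rose of 41. All 8 that rose were gibberellin 2-oxidases, which inactivate the hormone, with log2 values between 1.24 and 3.13; 10 genes of that description were tested. Gibberellin 2-oxidase 1 (Gh_A01G2049) had 30.8, 40.9 and 27.4 FPKM in SAS and 7.74, 4.23 and 6.41 in AS leaves (log2 2.47 ± 0.27, adjusted p = 0.00038). The cell wall peptide gene Gh_A07G1108, of the Gibberellin-regulated family, had 30.8, 21.7 and 60.3 FPKM in SAS leaves, 419.9, 328 and 222 in AS leaves and 741, 636 and 599.9 in CK leaves. The 3 groups did not overlap (SAS over AS log2 -3.07 ± 0.35, adjusted p = 0.00045). Of 22 tested genes described as Gibberellin-regulated or GAST1, counted after values were seen, 10 fell and 0 rose.

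Among 93 abscisic acid genes 21 rose and 13 fell (median 0.20), and the number that rose was 11 without AS library 3. The shares, 22.6% and 13.98%, were near or under the 20.9% and 19.8% of all tested genes. Marker genes of guard cells, whose pores close on abscisic acid, had the sums given above, higher in every SAS library than in any AS library, and 16 of the 19 belong to the gene lists described here. ABRE-binding factor 3 (Gh_D12G0214), a transcription factor of abscisic acid responses, had 52.1, 50.6 and 51.1 FPKM in SAS and 27.4, 26.1 and 26.5 in AS leaves (log2 0.98 ± 0.08, adjusted p = 0.00018). CYP707A3 (Gh_A08G1344), which breaks abscisic acid down, had 15.2, 16.9 and 21.01 FPKM in SAS and 57.9, 39.3 and 50.9 in AS leaves (log2 -1.44 ± 0.16, adjusted p = 0.00042). The 3 SAS values of each of these genes lay clear of the AS values. For jasmonate synthesis 6 rose and 9 fell of 37, or 16.2% and 24.3% beside the 20.9% and 19.8% of all tested genes. Those 6 became 3 without SAS library 2 or AS library 2 and 10 without SAS library 3, and the 9 became 4 without AS library 3. For the jasmonate ZIM-domain repressors 4 rose and 3 fell of 27, shares of 14.8% and 11.1% that were under those of all tested genes. The number that rose was 2 without SAS library 2 and 9 without SAS library 3. Jasmonate-zim-domain protein 10 (Gh_D01G0196) had 47.2, 60.3 and 36.3 FPKM in SAS and 12.8, 9.71 and 12.1 in AS leaves (log2 2.10 ± 0.23, adjusted p = 0.0004). Jasmonate-zim-domain protein 3 (Gh_D05G2975), in contrast, had 29.3, 21.6 and 36.8 FPKM in SAS and 56.6, 58.1 and 60.2 in AS leaves (log2 -0.96 ± 0.15, adjusted p = 0.00136). In both of these repressors the groups did not overlap. Among auxin genes, 23 Aux/IAA, auxin response factor and GH3 genes rose and 24 fell of 127, shares of 18.1% and 18.9% that were under those of all tested genes. Of 69 SAUR genes 10 rose and 19 fell, or 14.5% and 27.5%. Those 10 became 6 without SAS library 2. Calcium sensors and their kinases had 55 that rose and 18 that fell of 126 (median 0.31). Calmodulin-like 41 (Gh_D11G1887) had 163, 259 and 148 FPKM in SAS and 76.8, 51.1 and 72.5 in AS leaves (log2 1.55 ± 0.24, adjusted p = 0.00133). MYB factors had 52 that rose and 35 that fell of 166, or 31.3% and 21.1%. Clock genes had 7 that rose and 2 that fell of 31, or 22.6% and 6.45%, with 4 in place of 7 without AS library 3.

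**Figure D4:**
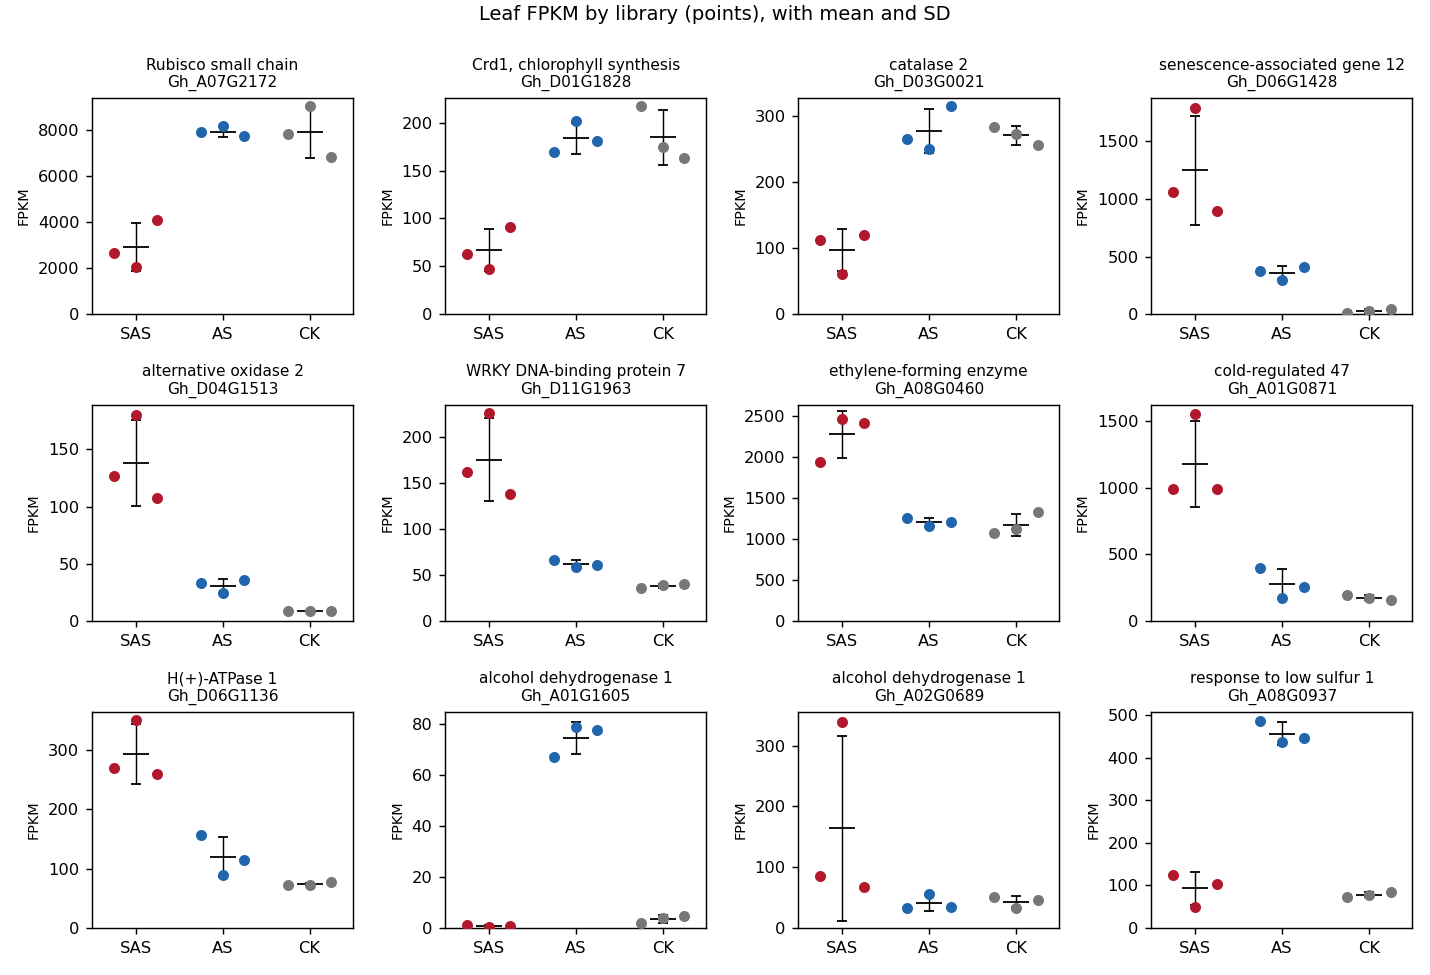
FPKM of 12 genes in each leaf library (points; bars give mean and SD over 3 libraries; linear axes from 0), with SAS left of AS and CK. SAS lies below AS for Rubisco small chain, Crd1, catalase 2, alcohol dehydrogenase 1 Gh_A01G1605 and response to low sulfur 1, and above it in the other panels; in alcohol dehydrogenase 1 Gh_A02G0689 the SAS point of library 2 stands far above the other SAS points.

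Transport of protons, sodium and potassium, the ions that an alkaline sodium solution bears on directly, changed in some genes each way. Of 104 proton pump genes 11 rose and 23 fell, or 10.6% and 22.1% (median -0.10). Of 96 sodium and potassium transport genes 14 rose and 19 fell, or 14.6% and 19.8% (median -0.08). These shares were near or under the 20.9% and 19.8% of all tested genes. Plasma membrane H(+)-ATPase 1 (Gh_D06G1136) had 269, 351 and 259 FPKM in SAS leaves, 156, 89.96 and 114 in AS leaves and 72.1, 72.01 and 76.6 in CK leaves. The groups were all apart (SAS over AS log2 1.33 ± 0.22, adjusted p = 0.00161). H(+)-ATPase 11 (Gh_A03G0569), of the same pump family, had 82.01, 57.1 and 114 FPKM in SAS and 147, 196 and 172 in AS leaves, apart in the other direction (log2 -0.996 ± 0.21, adjusted p = 0.00487). H(+)-ATPase 6 (Gh_D02G0675) had 0 counts in all SAS libraries and 1.73, 1.27 and 2.54 FPKM in AS leaves. That is at least 15.3-fold lower in SAS when each SAS library is given 3 counts. This gene was chosen because all its SAS counts were 0. It passed the filter only through its AS libraries, so its direction was fixed by the choice. Potassium transport also changed each way. K+ uptake transporter 3 (Gh_D04G0700) had 48.9, 53.8 and 52.7 FPKM in SAS and 30.99, 31.4 and 31.1 in AS leaves (log2 0.77 ± 0.09, adjusted p = 0.00057). The outward rectifying potassium channel gene Gh_D01G0727 had 7.98, 5.63 and 10.3 FPKM in SAS and 18.01, 22.6 and 21.9 in AS leaves (log2 -1.35 ± 0.17, adjusted p = 0.00066).

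Genes for carbonic anhydrases, which interconvert CO2 and bicarbonate, and for malate and citrate metabolism had 30 that rose and 42 that fell of 149 (median -0.12), or 20.1% and 28.2% beside the 20.9% and 19.8% of all tested genes. ATP-citrate lyase A-2 (Gh_D12G1452), which makes cytosolic acetyl-CoA from citrate, had 167, 303 and 130.4 FPKM in SAS and 57.7, 65.4 and 54.5 in AS leaves (log2 1.81 ± 0.28, adjusted p = 0.00128). Peroxisomal NAD-malate dehydrogenase 1 (Gh_A01G1505), of the photorespiratory peroxisome, had 97.0, 71.7 and 126 FPKM in SAS and 186, 206 and 203 in AS leaves (log2 -0.98 ± 0.18, adjusted p = 0.00236). The malate dehydrogenase was lower, and the lyase higher, in every SAS library than in any AS library. MATE and malate efflux transporters had 16 that rose and 20 that fell of 71, or 22.5% and 28.2%. For nitrate and ammonium 27 rose and 19 fell of 73 (median 0.14). Nitrate transporter 1.5 (Gh_A13G0105), which loads nitrate into the xylem in Arabidopsis roots, had 77.9, 80.5 and 90.1 FPKM in SAS leaves, 31.3, 18.5 and 36.5 in AS leaves and 1.35, 1.73 and 2.21 in CK leaves. None of the 3 groups overlapped (SAS over AS log2 1.56 ± 0.24, adjusted p = 0.00133). Glutamine synthetase 2 (Gh_A02G0242), the chloroplast enzyme that fixes ammonium, had 229, 165 and 298 FPKM in SAS and 377, 447 and 406 in AS leaves (log2 -0.80 ± 0.18, adjusted p = 0.00703). SAS libraries 1, 2 and 3 of the chloroplast enzyme were all below the AS libraries. Of 111 phosphate starvation genes 44 fell and 9 rose (median -0.34). Sulfoquinovosyldiacylglycerol 1 (Gh_A05G0324), an enzyme of phosphorus-free membrane lipids, had 52.9, 42.7 and 50.9 FPKM in SAS leaves, 152, 91.8 and 158 in AS leaves and 68.2, 66.3 and 66.6 in CK leaves. AS was above both other groups (SAS over AS log2 -1.42 ± 0.19, adjusted p = 0.00079). The mitochondrial phosphate transporter 3;2 (Gh_A07G0413) had 65.1, 92.7 and 39.8 FPKM in SAS and 11.7, 11.3 and 10.5 in AS leaves (log2 2.61 ± 0.30, adjusted p = 0.00045). Iron genes had 11 that rose and 12 that fell of 43, or 25.6% and 27.9%, with a median of -0.33. Without SAS library 2, 7 fell. The iron store ferritin 1, spelled ferretin in the deposited description (Gh_D09G1582), had 172, 257 and 124 FPKM in SAS and 55.7, 42.98 and 71.6 in AS leaves (log2 1.75 ± 0.28, adjusted p = 0.00156). CK leaves, at 94.3, 119 and 118 FPKM, lay between them.

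Most called genes of the microtubule and cell wall lists were lower in SAS leaves. Of 93 tubulins and kinesins, the microtubule proteins and motors, 55 fell and 5 rose (median -0.65), and of 114 cellulose synthases and arabinogalactan proteins 62 fell and 9 rose (median -0.67), or 5 without SAS library 2 or AS library 2. Expansins and xyloglucan endotransglucosylases, which loosen and remodel the wall, had 42 that fell and 13 that rose of 87 (median -0.72), and pectate lyases and polygalacturonases 32 and 12 of 65 (median -0.53). Of 70 aquaporins 27 fell and 7 rose (median -0.29), or 14 without AS library 1. Xylem marker genes, in cells with thick walls, summed lower in SAS leaves, as given above, but 18 of the 34 belong to the gene lists described here. Cyclins and core histones, marks of cell division, had 23 that fell and 12 that rose of 157, shares of 14.6% and 7.64% that were below those of all tested genes. The 23 became 9 without SAS library 1, SAS library 2 or AS library 2 and 41 without SAS library 3.

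Tubulin beta 8 (Gh_A05G0766) had 172, 87.2 and 159.6 FPKM in SAS leaves, against 351, 309.9 and 380.5 in AS leaves and 205, 208 and 216 in CK leaves (SAS over AS log2 -1.29 ± 0.21, adjusted p = 0.00168). Xyloglucan endotransglucosylase/hydrolase 16 (Gh_A02G1729) had 92.0, 31.99 and 61.8 FPKM in SAS and 253, 234 and 249 in AS leaves (log2 -1.96 ± 0.31, adjusted p = 0.0015). In both genes the SAS libraries lay below the AS libraries, with SAS library 2 the lowest. Plasma membrane intrinsic protein 1C (Gh_D08G1970), a water channel, had 95.6, 75.8 and 147 FPKM in SAS and 227, 285 and 275 in AS leaves (log2 -1.27 ± 0.20, adjusted p = 0.00144). FASCICLIN-like arabinogalactan 2 (Gh_D07G1945), a wall glycoprotein, had 51.1, 25.3 and 43.6 FPKM in SAS and 113, 94.5 and 90.3 in AS leaves (log2 -1.28 ± 0.24, adjusted p = 0.00279). Both were lower in every SAS library. Against the list, expansin A4 (Gh_D13G0200) had 46.6, 50.1 and 45.6 FPKM in SAS and 14.8, 13.1 and 8.72 in AS leaves (log2 1.997 ± 0.31, adjusted p = 0.00126). Cytosolic ribosomal proteins had 200 that fell and 13 that rose of 521 (median -0.28), with 9 of the falls at 2-fold or more. The number that fell was 124 without AS library 1 and 130 without AS library 3, and the 13 became 5 without SAS library 2 and 7 without AS library 2 or AS library 3. Their summed FPKM was 23594, 23543 and 23174 in SAS leaves, 29829, 28424 and 29019 in AS leaves and 19369, 19235 and 18942 in CK leaves, with SAS between the other groups. Ribosomal RNA processing factors had 14 that fell and 1 that rose of 66, or 21.2% and 1.52% (median -0.05). The share that fell was near the 19.8% of all tested genes, and the share that rose was under their 20.9%.

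Phenolic routes diverged. Flavonoid and anthocyanin synthesis had 23 genes that fell and 1 that rose of 39 (median -0.70). Phenylpropanoid and monolignol enzymes, which lead to lignin, had 43 that rose and 12 that fell of 89 (median 0.64). The 12 became 6 without AS library 2 and 7 without AS library 3. The chalcone synthase family gene Gh_A10G1080, for the entry enzyme of flavonoids, had 784, 441 and 512 FPKM in SAS leaves, 1076, 1022 and 1172 in AS leaves and 2451, 2484 and 2224 in CK leaves. SAS was below AS and AS below CK (SAS over AS log2 -0.88 ± 0.21, adjusted p = 0.00803). It lies beside Gh_A10G1079, of the same description and with near-equal values, so reads shared by the neighbours leave each value uncertain. Cinnamyl alcohol dehydrogenase 5 (Gh_D12G0195), the last enzyme before monolignols, had 309, 305 and 277 FPKM in SAS leaves and 174, 99.8 and 124 in AS leaves (log2 1.20 ± 0.21, adjusted p = 0.00204). A phenylalanine ammonia lyase gene (Gh_D01G2080), the entry to both routes, had 324, 171 and 224 FPKM in SAS and 389.6, 447 and 415 in AS leaves (log2 -0.77 ± 0.20, adjusted p = 0.014). The dehydrogenase was higher and the lyase lower in all 3 SAS libraries than in any AS library. Mevalonate route and terpene synthase genes, which include the route to gossypol, the defence terpenoid of cotton, had 21 that rose and 7 that fell of 56 (median 0.63). Terpene synthase 21 (Gh_D01G1963) had 98.4, 277 and 75.9 FPKM in SAS and 14.5, 26.3 and 7.52 in AS leaves (log2 3.29 ± 0.57, adjusted p = 0.00211). SAS library 2 stood far above the other SAS libraries, and without it the log2 change was 2.44. Another gene of this description, Gh_A01G0555, was lower, with 7.41, 9.22 and 6.66 FPKM in SAS and 17.7, 22.3 and 19.1 in AS leaves (log2 -1.30 ± 0.15, adjusted p = 0.00042). Wax and cuticle genes had 33 that rose and 18 that fell of 104 (median 0.25), or 11 that fell without AS library 2. The epidermis marker sums, from the cells that make the cuticle, overlapped between SAS and AS leaves. 3-ketoacyl-CoA synthase 4 (Gh_A01G2000), which extends very long fatty acids, had 220.5, 257 and 244 FPKM in SAS and 144, 85.4 and 92.6 in AS leaves (log2 1.20 ± 0.21, adjusted p = 0.00204). Lipid-transfer proteins had 24 that fell and 7 that rose of 67, osmotin, thaumatin, chitinase and glucanase genes 11 and 18 of 89, and UDP-glucosyl transferases, which attach sugars to small molecules, 52 and 42 of 202. Sugar transporters and invertases had 13 that fell and 18 that rose of 89, and raffinose, trehalose and proline synthesis 11 and 13 of 54, with 6 in place of 11 without AS library 3. Shares that rose were 20.2% for the osmotin list, 20.8% for UDP-glucosyl transferases, 20.2% for sugar transporters and 24.1% for raffinose. All were near the 20.9% of all tested genes. The shares that fell, in the same order, were 12.4%, 25.7%, 14.6% and 20.4%, beside 19.8% of all tested genes.

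Alcohol dehydrogenase 1, the last enzyme of ethanol fermentation, held the largest called decrease among described genes that reached 10 FPKM in their higher group, while other copies rose. Gh_A01G1605, on chromosome A01 from 93725101 to 93726944, had 1.23, 0.300 and 0.645 FPKM in SAS leaves, 66.97, 78.6 and 77.3 in AS leaves and 1.88, 3.88 and 4.67 in CK leaves. AS leaves were far above both other groups (SAS over AS log2 -6.62 ± 0.45, adjusted p = 0.00015, and log2 -7.21 without SAS library 1). The D copy Gh_D01G1853 had 0.719, 0.993 and 2.51 FPKM in SAS and 56.5, 69.4 and 57.9 in AS leaves (log2 -5.40 ± 0.41, adjusted p = 0.00018, and log2 -6.09 without SAS library 3). In contrast Gh_A02G0689 had 85.2, 340.0 and 66.7 FPKM in SAS and 33.3, 56.5 and 33.8 in AS leaves, without overlap (log2 2.06 ± 0.56, adjusted p = 0.0159). That increase rested in large part on SAS library 2: without it the log2 change was 0.88 (adjusted p = 0.0255), and without AS library 1 or AS library 3 the adjusted p was 0.0554 or 0.0588. Of 8 genes with this description 2 rose, 3 fell and 3 were not called. The other that rose, Gh_D02G0733, had 37.9, 179.6 and 29.4 FPKM in SAS and 17.5, 26.1 and 16.9 in AS leaves (log2 2.10 ± 0.62, adjusted p = 0.022), and log2 0.74 without SAS library 2. Without that library, AS library 1 or AS library 3, or with limma, it was not called. Over 40 fermentation and low oxygen genes 15 rose and 9 fell (median 0.43).

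The other largest decreases came from a family of unknown function. Of the 8 described genes with the largest called decrease at that level, 4 were labelled Protein of unknown function (DUF506). The whole family, counted after these values were seen, had 20 that fell, 0 that rose and 9 not called of 29 tested. Among them Gh_A06G1755 had 0.246, 0.317 and 0 FPKM in SAS leaves and so passed the filter only through AS, which fixed its direction. The family count was not repeated without such genes. Gh_D09G0707 had 0.757, 3.74 and 1.21 FPKM in SAS leaves, 59.0, 100.3 and 106 in AS leaves and 11.6, 12.4 and 18.1 in CK leaves. AS lay above CK and CK above SAS (SAS over AS log2 -5.48 ± 0.54, adjusted p = 0.00031, and log2 -6.48 without SAS library 2). Phloem protein 2-B15 (Gh_D13G1152), of a lectin family, had 2.35, 2.54 and 2.37 FPKM in SAS leaves, 66.2, 9.74 and 77.2 in AS leaves and at most 0.0922 in CK leaves, with AS library 2 far below the other AS libraries (log2 -4.36 ± 0.67, adjusted p = 0.00131 for SAS over AS). Phytocystatin 2 (Gh_A02G0165), an inhibitor of cysteine proteases, had 0.449, 0.393 and 0.121 FPKM in SAS and 9.17, 14.9 and 17.6 in AS leaves (log2 -5.31 ± 0.43, adjusted p = 0.00018). It too passed the filter only through AS, so its direction was fixed.

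Among the 8 largest increases, 3 were potato inhibitor I-type serine protease inhibitors, defence proteins against insect and microbial proteases, and 2 were FAD-binding Berberine family oxidases. The 5 tested inhibitor genes, of 13 with that description, all rose, with log2 values between 2.18 and 5.36. Of 28 Berberine family genes 18 rose and 1 fell, again counted after these values were seen. Gh_D11G1335 had 51.3, 101 and 39.8 FPKM in SAS leaves and 4.204, 1.76 and 1.44 in AS leaves (log2 4.71 ± 0.49, adjusted p = 0.00035, and log2 5.34 without AS library 1). The Berberine family gene Gh_D06G1956 had 13.2, 24.0 and 8.102 FPKM in SAS leaves, 0.468, 0.343 and 0.2796 in AS leaves and 0.0401, 0.0301 and 0.07905 in CK leaves (SAS over AS log2 5.40 ± 0.44, adjusted p = 0.00018). The RING/U-box gene Gh_A02G0532, of a family of ubiquitin ligases, had 36.96, 49.3 and 29.9 FPKM in SAS and 2.02, 1.496 and 0.634 in AS leaves (log2 4.82 ± 0.37, adjusted p = 0.00018). C-repeat/DRE binding factor 1 (Gh_D05G0839), a transcription factor of cold and dehydration responses, had 11.1, 12.7 and 6.86 FPKM in SAS and 0.681, 0.158 and 0.169 in AS leaves (log2 4.88 ± 0.64, adjusted p = 0.00074, and log2 5.91 without AS library 1). For Gh_D06G1956 and Gh_D05G0839 every AS library was under 1 FPKM, so both passed the filter only through SAS. The 2 family counts hold such genes too. Gh_A11G1177 of the inhibitors had 0.539, 0.974 and 0 FPKM in AS leaves, and Gh_A06G1602 of the Berberine family 0.733, 0.640 and 0.233. The direction of such genes was fixed by the filter, and the family counts were not repeated without them.

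In absolute level the largest increase was metallothionein 3 (Gh_A04G0263), a small cysteine-rich metal-binding protein, with 3501, 3305 and 2615 FPKM in SAS leaves, 1782, 1033 and 1593 in AS leaves and 372, 365 and 404 in CK leaves. The 3 groups were apart (SAS over AS log2 1.13 ± 0.21, adjusted p = 0.00264), and of the 7 tested genes with this description 2 fell and 4 were not called. Cold-regulated 47 (Gh_A01G0871), a dehydrin that accumulates in dehydrated cells, had 988, 1550.0 and 990.0 FPKM in SAS leaves, against 401, 176 and 257 in AS leaves and 199, 175 and 155 in CK leaves. Its SAS libraries were above all others, and its AS and CK values overlapped (log2 2.12 ± 0.31, adjusted p = 0.00105). After 3 Rubisco small chain genes, the largest decrease in level was that of cytochrome B5 isoform D (Gh_A02G0841), an electron carrier. It had 957, 557 and 759 FPKM in SAS and 1672, 1625 and 1812 in AS leaves (log2 -1.14 ± 0.19, adjusted p = 0.00175). Next came germin 3 (Gh_D09G0765), a cell wall protein, with 166, 108 and 334 FPKM in SAS and 727, 1131 and 704 in AS leaves (log2 -2.05 ± 0.35, adjusted p = 0.00201).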

How the data were processed

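Poly(A) RNA of cotton leaves and roots was sequenced as paired-end reads in 18 libraries, of which the 9 leaf libraries entered the fit. The deposited table holds, per the file headers, a read count and an FPKM for each of 70478 genes in each library, with a position and, for 58015 genes, a description. HISAT and StringTie are named for making these values, per the submitters' processing notes, without versions; the genome build, annotation and strand setting are not given in the sources used here. The deposited FPKM of a gene with 0 counts is 0.0001, which was read as 0 for the 302270 such values. Counts between 1 and 20 were even numbers in 56.1% to 59.8% of cases, so a deposited count may stand for a read or for a read pair, and totals are in that unit. No source used here says which was counted.

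The 43550 genes that reached 1 FPKM in at least 3 of the 6 SAS and AS leaf libraries were tested with edgeR's quasi-likelihood test (edgeR 4.0.16, R 4.3.3) on the counts with TMM scaling. All 9 leaf libraries shared 1 estimate of spread, the contrast was SAS over AS, and Benjamini-Hochberg adjustment ran over all genes tested. A gene is called at an adjusted p under 0.05, an error after ± is the standard error of the log2 change, and levels are deposited FPKM. Library totals ran from 52753477 to 66843791 counts, and no interval covers more than counting error and the spread of 3 libraries. At the filter, 1693 genes passed in exactly 3 libraries (median mean FPKM 1.08) and 1465 failed with 2 (median 0.859). A gene under 1 FPKM in every library of a group passed only through the other group. Among named genes Gh_D06G1956, Gh_D05G0839, Gh_A11G1177 and Gh_A06G1602 passed only through SAS. Those that passed only through AS were Gh_A02G0165, Gh_A05G3353, Gh_A06G1755 and Gh_D02G0675 (H(+)-ATPase 6). The script was tested on simulated data.

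Gene lists were drawn from words in the deposited descriptions, and no tested gene belongs to more than 1 of the 57 lists. The comparison and the lists were chosen with earlier results of these data known. Named genes had to be called, described and without overlap of SAS and AS libraries in CPM. They were the 8 largest log2 changes each way with at least 10 FPKM in the higher group, the 5 largest FPKM differences each way, and up to 2 members of each list each way by FPKM difference. H(+)-ATPase 6 and the family counts were chosen after values were seen. Alternatives used DESeq2 1.42.0, limma 3.58.1, other scalings, filters and library sets.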

Additional observations from a re-analysis of the deposited data

How the results depend on the processing

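The number of called genes stayed within 1.5 times its value of 17721 under every alternative run: 19622 with DESeq2, 17352 with library totals, 17666 with upper-quartile scaling, 17139 with no filter, 14157 at 5 FPKM, 14486 with the 6 libraries alone, and 17894 and 17533 with limma on log2(FPKM + 1) and log2(FPKM + 0.1). Leaving out each library gave 13251 to 18948, with 6727 to 9442 higher and 6435 to 9506 lower. Which direction was more frequent depended on the setting. The main fit had 9117 higher and 8604 lower, library totals 8273 and 9079, and upper-quartile scaling 8280 and 9386. With limma the counts were 8463 and 9431 at the larger pseudocount and 8207 and 9326 at the smaller. With the replicate number as a block 15703 were called. SAS and AS libraries of the same number had deviations that correlated at 0.141, -0.051 and -0.034. Those of unlike number correlated between -0.227 and 0.223. What libraries of the same number share besides the number was not tested. The median log2 change over all genes was -0.0017, against -0.0428 with library totals, -0.0430 with upper-quartile scaling, -0.0188 with no filter, -0.0142 with the 6 libraries alone, and -0.0359 and -0.0426 with limma at the larger and smaller pseudocount. Without single libraries it ran from -0.0127 to 0.00986. Of the counts of list members over all alternatives, 168 moved by over 1.5 times and 1542 did not. No named gene reversed, and 168 refitted calls were lost while 3363 held; the cause was not tested. List medians near 0 (jasmonate synthesis, Aux/IAA, sugar transporters, large heat shock proteins, osmotin) changed sign in some alternatives. Calls were fewer at low levels: 24.8% of genes under 2 FPKM were called, against 58.6% above 250 FPKM.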
